A study of Mus musculus with 8 samples.

Results

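The genes described here are the liver X receptors (LXRs) and PPARG with a set of their cholesterol efflux and lipid storage targets in bone marrow-derived macrophages (BMDMs). The set was drawn by name and holds Nr1h2, Nr1h3, Pparg, Abca1, Abcg1, Mylip, Apoe, Fabp4, Fabp5 and Plin2. Of these 10 genes, 9 were matched in the table of 23761 genes, and Apoe was not analysed here. RNA was sequenced from BMDMs of 4 LysM mice (genotype LysM Cre/Cre) and 4 K2KO mice (LysM Cre/Cre KLF2 flox/flox), all 3 months of age on a C57BL/6J background. The marrow was grown for 6 days in medium conditioned by L929 fibroblasts, and the vehicle ("veh") written in the sample descriptions was the same for both groups. Both groups carry Cre under the lysozyme M promoter, which is active in myeloid cells, and they differ by the floxed Klf2 alleles. The columns of the table name the genotype and a number from 0 to 3 but not the mouse, so the libraries are called LysM0 to LysM3 and K2KO0 to K2KO3.

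LXRs are nuclear receptors that bind oxysterols, pair with a retinoid X receptor (RXR) and switch on genes that move cholesterol out of the macrophage. Nr1h3 encodes LXR alpha and Nr1h2 encodes LXR beta. PPARG is a nuclear receptor for fatty acid ligands, also pairs with RXR, and drives genes of fatty acid uptake, binding and storage. Krüppel-like factors such as KLF2 bind CACCC and GC-rich elements in DNA.

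The sequence before a RefSeq transcript start of Nr1h3 is shown because Nr1h3 is the receptor whose level differed between the groups. That before Abca1 is shown because it holds the letters of an LXR-type element. RefSeq (GRCm38.p6) promoter windows, which run from 250 bases before a transcript's start to 50 bases after it, were matched for 7 of the 10 genes. The 250 bases before the start are printed 5′ to 3′. Capitals mark CACCC boxes and GC boxes (GGGCGG) in Nr1h3, at chr2:91195117-91195366 on the minus strand. This stretch lies inside the annotated span of Nr1h3 (chr2:91184061-91202834), before an internal RefSeq start. Another Nr1h3 window, at chr2:91194986-91195285, overlaps it and is not printed. In Abca1, at chr4:53159896-53160145 on the minus strand, capitals mark a pair of receptor half-sites spaced by 4 bases (DR4).
Nr1h3: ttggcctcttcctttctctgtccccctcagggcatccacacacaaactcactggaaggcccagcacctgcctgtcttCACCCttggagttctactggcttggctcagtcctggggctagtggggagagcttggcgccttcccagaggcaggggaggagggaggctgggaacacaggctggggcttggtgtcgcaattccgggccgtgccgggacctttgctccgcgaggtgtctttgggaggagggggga
Abca1: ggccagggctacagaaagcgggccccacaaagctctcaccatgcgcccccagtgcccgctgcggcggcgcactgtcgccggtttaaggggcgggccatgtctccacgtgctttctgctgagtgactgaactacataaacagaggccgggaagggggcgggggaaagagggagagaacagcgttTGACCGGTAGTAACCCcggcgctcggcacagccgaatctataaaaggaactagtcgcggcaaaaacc

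The window of the printed Nr1h3 start held 3 CACCC boxes (CACCC, or GGGTG on the other strand) and no GC box. The CACCC boxes lay at position -173 and at positions 33 and 39 after the start. The windows of Pparg held 4, 1 and 0 CACCC boxes, and those of Abca1, Plin2, Nr1h2 and Mylip held 0. GC boxes numbered 1, 2 and 0 in the windows of Pparg, 2 in Abca1, 1 in Plin2, 1 in Mylip and 0 in Nr1h2. Those of Abca1 are left in small letters above. A CACCC box was found in 57.5% of 32851 RefSeq promoter windows of this length, and a GC box in 35.7%. The DR4 of Abca1, at position -67, was found with the pattern NGGTNANNNNNGGTNA on either strand, a pattern present in 0.718% of windows. The windows of Nr1h2, Nr1h3, Plin2, Pparg and Mylip held no such pattern. These matches describe letters in the reference sequence and were not tested for binding.

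The cells were first checked against the targeted gene and cell type markers. Klf2 (chr8:72319033-72321656, mm10) stood at 44.12, 52.94, 64.71 and 72.84 FPKM (sequenced fragments scaled to transcript length and to the depth of the library, so that genes can be compared) in LysM0 to LysM3. From K2KO0 to K2KO3, Klf2 stood at 45.46, 41.55, 59.17 and 59.3 FPKM. These ranges overlapped, with a log2 fold change (K2KO minus LysM, as throughout) of -0.18 ± 0.17 (SE, n = 4 per group) and an adjusted p of 0.46 by limma. Klf2 RNA therefore does not separate the libraries by genotype, and which exons the deletion removes was not analysed here, so every direction below is between the libraries labelled K2KO and those labelled LysM.

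Of 8 macrophage markers, all 8 were at or above 1 FPKM, with Cd68, a lysosomal membrane protein, the most abundant at 1807 FPKM. Their summed level was 4043 to 4270 FPKM in LysM and 3776 to 3940 FPKM in K2KO, so the groups did not overlap. Most of the gap lay in Cd14, a co-receptor for lipopolysaccharide named after its values were seen, at 1028 ± 56.72 FPKM in LysM and 829.2 ± 117.5 in K2KO (SD, n = 4; log2 fold change -0.32, limma adjusted p = 0.063). Over 12 other settings the log2 fold change of Cd14 ran from -0.32 to -0.02. The median log2 fold change of the 8 markers was -0.17, and 0.01 under quantile normalization. The 1 marker called different was Lyz2, the lysozyme gene from which Cre is driven, named here after its values were seen, at 18.62 ± 2.882 FPKM in LysM and 13.18 ± 1.732 in K2KO (SD, n = 4; log2 fold change -0.49, adjusted p = 0.026 by limma). The call of Lyz2 was kept in 10 of 12 other settings and in 4 of 8 fits that each left out 1 library. The part of this marker difference in the results below was not tested, and in bulk RNA fewer cells of a type and less RNA per cell cannot be told apart.

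Adipocytes also express Pparg, Fabp4 and Plin2. Of 6 adipocyte markers 5 were listed, their sum never exceeded 0.1769 FPKM in a library, Adipoq reached at most 0.04178 FPKM and Cfd was listed at 0 throughout. Gapdh, which every cell uses, was also listed at no more than 0.4999 FPKM in this table, so these values do not show that the cells were absent. The 6 fibroblast markers summed to between 0.1628 and 1.31 FPKM in LysM and between 0.5564 and 3.253 FPKM in K2KO, with Dcn the most abundant at 0.4809 FPKM. Neutrophil markers, led by S100a9 at 129.2 FPKM, summed to a mean of 196.6 FPKM in LysM and 202.5 FPKM in K2KO. Osteoclast markers, led by Ctsk at 37 FPKM with Calcr at 0, summed to means of 76.12 and 65.91 FPKM. Dendritic cell markers, led by Itgax at 4.912 FPKM, summed to 6.865 and 7.218 FPKM, and lymphocyte markers, led by Cd79a at 0.8344 FPKM, to 1.327 and 2.121 FPKM. None of the neutrophil, osteoclast or dendritic cell markers that could be tested was called. Of 3 osteoclast markers tested, with a median log2 fold change of -0.42, 2 were called lower with the replicate block (66.7%, beside 18.8% of all genes). Without LysM0, 1 was called lower (33.3%, beside 21.4% of all genes). Ctsk was at 42.46 ± 8.073 FPKM in LysM and 31.54 ± 5.287 in K2KO (SD, n = 4; log2 fold change -0.42, limma adjusted p = 0.085), and the share of these cells in any result was not tested.

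Of the 9 lipid-handling genes, Nr1h3 was lower in K2KO and Fabp5 was higher, and the other 7 did not pass the thresholds. A gene was called if its adjusted p was under 0.05 and its log2 fold change exceeded 0.26 in either direction, with limma fitted on log2(FPKM + 0.1) of all genes with a mean of at least 1 FPKM. The same thresholds called 18.4% of the 10920 genes tested, 9.84% higher and 8.61% lower in K2KO. Against that background, 2 of 9 called (22.2%) is a share near that of all genes. For the counts below without 1 library, the share of all genes was 21.4%, 6.74%, 9.43% and 3.09% without LysM0 to LysM3. It was 6.47%, 6.65%, 4.54% and 26% without K2KO0 to K2KO3. All 9 genes passed the filter on low values. Their median log2 fold change was 0.03, beside 0.01 over all tested genes. It was 0.17, beside 0.00, under quantile normalization, with 8 of 9 genes above 0, and -0.04 without LysM2.

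**Figure D1:**
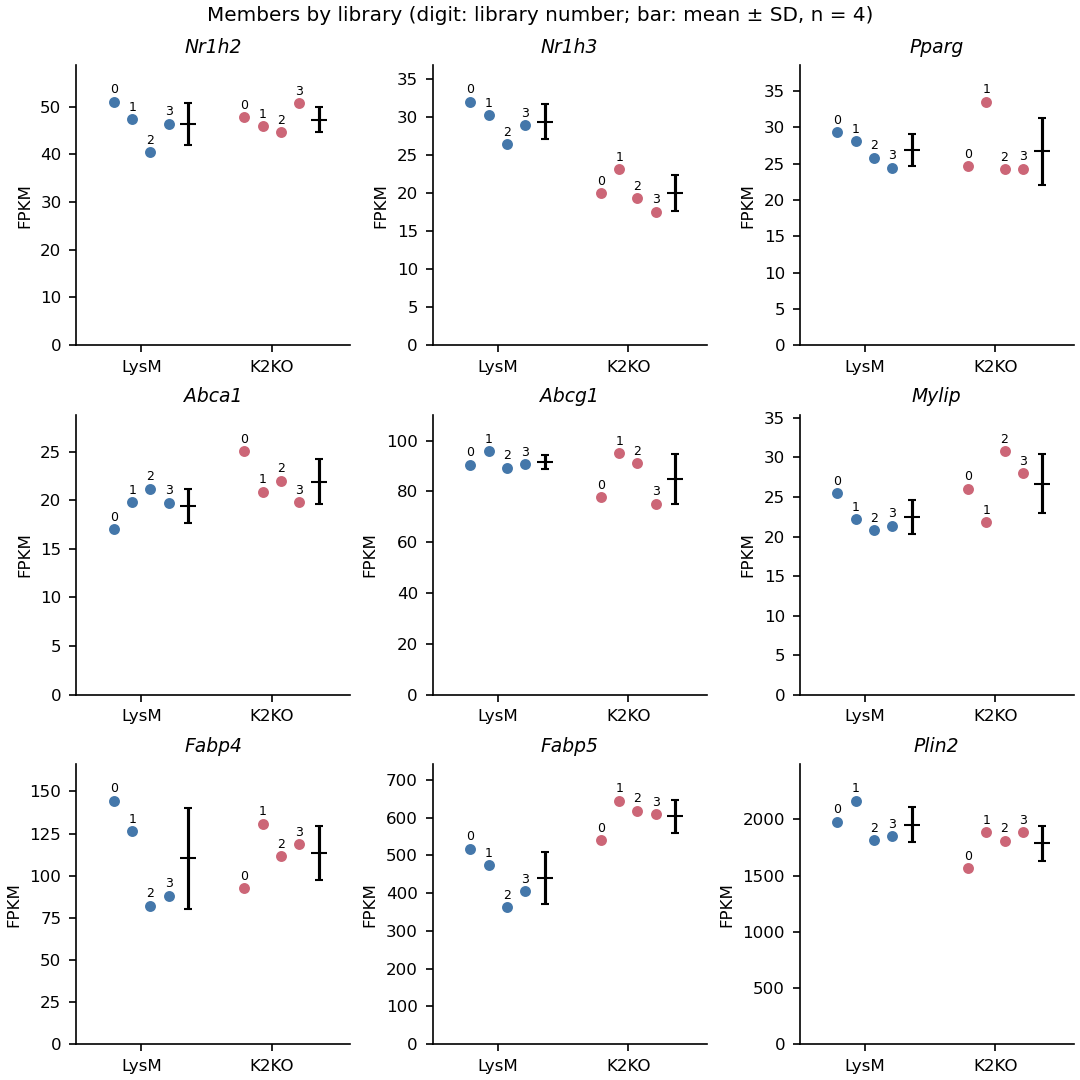
FPKM of each of the 9 genes (vertical axes, each panel with its own scale) in the 4 LysM and 4 K2KO libraries (numbered points), with bars for the mean and SD. The panels of Nr1h3 and Fabp5 show groups that do not overlap, and the others show overlap.

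Among the receptors, LXR alpha RNA was reduced in K2KO by 31.9% of the LysM mean while LXR beta and PPARG were not called. Nr1h3 (ENSMUSG00000002108.10, chr2:91184061-91202834, minus strand, mm10) stood at 32.06, 30.27, 26.48 and 28.96 FPKM in LysM0 to LysM3. Across K2KO0 to K2KO3, Nr1h3 stood at 20.06, 23.14, 19.38 and 17.57 FPKM. Every K2KO library was thus below every LysM library, with K2KO1 the nearest to the controls and LysM2 the lowest control. The means were 29.44 ± 2.349 and 20.04 ± 2.322 FPKM (SD, n = 4), which gave a log2 fold change of -0.56 ± 0.09 (SE; 95% interval -0.76 to -0.35; limma adjusted p = 0.0109). Groups of 4 libraries did not overlap for 23.1% of all tested genes, with K2KO lower for 10.2%. Nr1h3 stayed called in all 8 fits that left out 1 library, with log2 fold changes from -0.63 to -0.50. Correcting for the GC content and length of transcripts left -0.41 (adjusted p = 0.0443). Nr1h3 overlaps the annotated transcript Gm13783 on the same strand, which was listed at 0 FPKM.

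Nr1h2 (chr7:44549616-44553951) stood at 51.04, 47.36, 40.42 and 46.42 FPKM in LysM0 to LysM3. For K2KO0 to K2KO3, it stood at 47.79, 45.86, 44.62 and 50.68 FPKM. The ranges overlapped, and LysM2 was the lowest of the 8 libraries. The log2 fold change was 0.03 ± 0.08 (SE, n = 4 per group), with a 95% interval from -0.15 to 0.21 and an adjusted p of 0.792 by limma. The GC and length correction moved it to 0.23 ± 0.06 (limma adjusted p = 0.0432), below the fold limit for a call.

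Because both LXR genes were read from the same libraries, their ratio was compared library by library. The Nr1h3 to Nr1h2 ratio of FPKM was 0.6282, 0.6392, 0.6552 and 0.6239 in LysM0 to LysM3. In K2KO0 to K2KO3, the ratio was 0.4198, 0.5046, 0.4342 and 0.3466. The LysM values lay within a narrow band and the K2KO values were all below it, with K2KO3 lowest. The mean ratio was 0.6366 ± 0.01398 in LysM and 0.4263 ± 0.06477 in K2KO (SD, n = 4), a log2 difference of -0.59. A two-sided exact permutation test gave p = 0.0286, the smallest that 4 against 4 allows, and 0.0429 after adjustment over the 3 ratios examined. The adjusted exact p rose to between 0.0571 and 0.0857 without LysM1, LysM2, K2KO0, K2KO2 or K2KO3, and the log2 difference then lay between -0.60 and -0.49. The exact test counts splits with a mean difference at least as large, and the adjustment also uses the other ratios. The adjusted p can therefore rise while the groups still do not overlap, as here.

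Pparg (chr6:115360951-115490399) stood at 29.31, 28.1, 25.82 and 24.44 FPKM in LysM0 to LysM3. From K2KO0 to K2KO3, it stood at 24.63, 33.54, 24.26 and 24.32 FPKM. K2KO1 was the highest of all 8 libraries, K2KO2 and K2KO3 were just below the LysM range and K2KO0 was inside it. The log2 fold change was -0.02 ± 0.11 (SE, n = 4 per group), with a 95% interval from -0.28 to 0.23 and an adjusted p of 0.898 by limma.

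The heterodimer partners and related receptors showed no call among 3 genes tested. Rxra, which encodes RXR alpha, was at 17.2 ± 1.104 and 18.08 ± 1.534 FPKM in LysM and K2KO (SD, n = 4; log2 fold change 0.07, limma adjusted p = 0.518). Rxrb was at 28.65 ± 1.074 FPKM in LysM and 24.67 ± 1.42 in K2KO, and its groups did not overlap. Its log2 fold change of -0.22 (limma adjusted p = 0.0357) was smaller than the limit set for a call, and it was -0.04 (adjusted p = 0.648) after the GC and length correction. Ppard, the fatty acid receptor PPAR delta, was at 8.21 ± 0.8584 and 7.75 ± 0.4655 FPKM (log2 fold change -0.08, limma adjusted p = 0.519). Rxrg was listed at 0 in every library, and Ppara was not analysed here. Of 14 co-regulators tested out of 16 in the list, 1 was called (7.14%, beside 18.4% of all genes), with 3 called without LysM0, 4 without K2KO3 and 0 without any other single library. The gene called was Ncor1, a corepressor of unliganded nuclear receptors, at 8.362 ± 0.3589 FPKM in LysM and 10.68 ± 1.248 in K2KO (log2 fold change 0.34, limma adjusted p = 0.026), and it was 0.20 (adjusted p = 0.0666) after the GC and length correction. That correction called 2 other co-regulators (14.3%, beside 10.1% of all genes), both lower in K2KO, namely the deacetylase gene Hdac3 (-0.28, limma adjusted p = 0.019) and the Mediator subunit gene Med1 (-0.45, limma adjusted p = 0.0283).

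**Figure D2:**
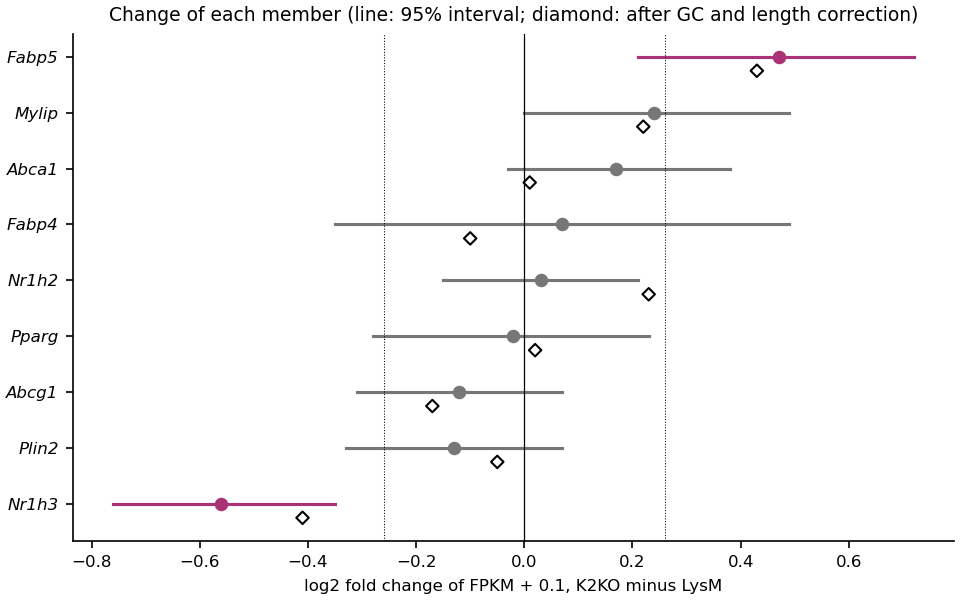
Log2 fold change of FPKM + 0.1, K2KO minus LysM (horizontal axis), for the 9 genes, with 95% intervals from limma. The intervals of Nr1h3 (-0.76 to -0.35) and Fabp5 (0.21 to 0.72) exclude 0, and those of the other 7 genes reach or cross it.

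None of the LXR targets of cholesterol efflux and uptake among the 9 genes was called. Abca1 (chr4:53030787-53159895), the transporter that loads cholesterol onto apolipoprotein A-I, stood at 17.01, 19.83, 21.21 and 19.76 FPKM in LysM0 to LysM3. Across K2KO0 to K2KO3, Abca1 stood at 25.05, 20.88, 22.04 and 19.78 FPKM. K2KO0 was the highest library and LysM0 the lowest, with the rest overlapping. The log2 fold change was 0.17 ± 0.09 (SE, n = 4 per group; 95% interval -0.03 to 0.38; limma adjusted p = 0.194), which became 0.01 after the GC and length correction.

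Abcg1 (chr17:31057675-31117988), which passes cholesterol to high density lipoprotein, stood at 90.55, 95.84, 89.4 and 90.85 FPKM in LysM0 to LysM3. For K2KO0 to K2KO3, Abcg1 stood at 77.77, 95.18, 91.21 and 75.16 FPKM. K2KO0 and K2KO3 lay below all controls, whereas K2KO1 and K2KO2 lay among them. The spread in K2KO, a coefficient of variation of 11.6%, was wider than the 3.11% in LysM, and the log2 fold change was -0.12 ± 0.08 (SE; 95% interval -0.31 to 0.07; limma adjusted p = 0.325).

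Mylip (chr13:45389742-45412022), a ubiquitin ligase that targets the LDL receptor for degradation, stood at 25.51, 22.16, 20.77 and 21.36 FPKM in LysM0 to LysM3. In K2KO0 to K2KO3, Mylip stood at 26.07, 21.85, 30.78 and 27.99 FPKM. All K2KO libraries except K2KO1 were above every control. The log2 fold change was 0.24 ± 0.11 (SE, n = 4 per group; limma adjusted p = 0.137), with a 95% interval that reached from just below 0 to 0.49.

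The efflux transporters were also set against each other. The Abca1 to Abcg1 ratio of FPKM was 0.1878, 0.207, 0.2373 and 0.2174 in LysM0 to LysM3. From K2KO0 to K2KO3, the ratio was 0.3221, 0.2194, 0.2416 and 0.2632. The groups overlapped through K2KO1 and LysM2, and the log2 difference of 0.29 gave p = 0.0571 by a two-sided exact permutation test, also 0.0571 after adjustment over 3 ratios. Over the 4 other settings tried on this ratio, the log2 difference ran from 0.17 to 0.29.

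**Figure D3:**
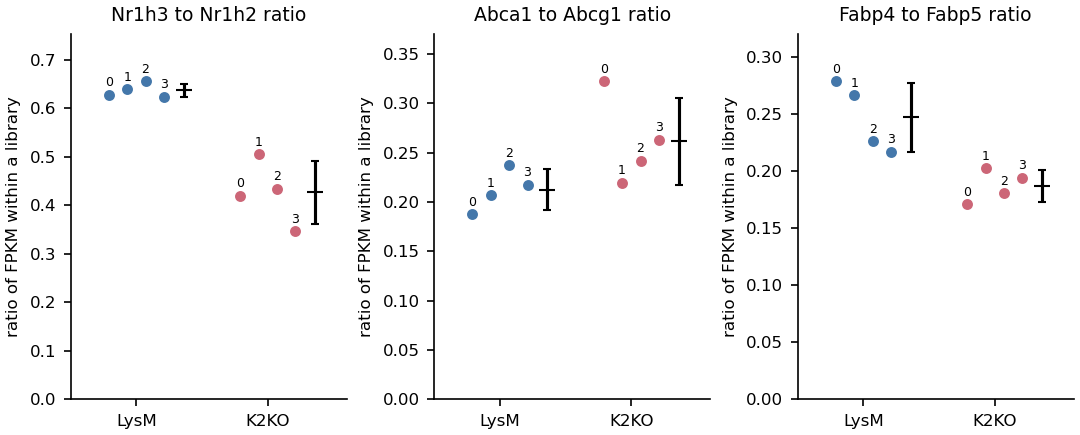
Ratios of FPKM within each library (vertical axes, no unit) for Nr1h3 to Nr1h2, Abca1 to Abcg1 and Fabp4 to Fabp5, for the 4 LysM and 4 K2KO libraries, with bars for the mean and SD. The Nr1h3 to Nr1h2 and Fabp4 to Fabp5 ratios are lower in every K2KO library than in any LysM library.

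Of 13 other LXR targets tested out of 15, 4 were called, 2 higher and 2 lower in K2KO (30.8%, beside 18.4% of all genes), and the median log2 fold change was 0.10. The count was 4 without LysM0 or K2KO3, 2 without K2KO1, and 1 without any other single library. Pltp, the phospholipid transfer protein, fell from 2592 ± 292 FPKM in LysM to 1464 ± 113 in K2KO (SD, n = 4; log2 fold change -0.82, limma adjusted p = 0.00358). The lowest LysM library was at 2232 FPKM and the highest K2KO library at 1570 FPKM for Pltp, which overlaps Ctsa on the opposite strand (507 FPKM) over 1515 bases. Apoc2, an apolipoprotein that activates lipoprotein lipase, was at 311.8, 548, 583.8 and 610.9 FPKM in LysM0 to LysM3 and at 321.7, 136.1, 265.5 and 314.2 FPKM in K2KO0 to K2KO3. LysM0 thus lay among the K2KO libraries for Apoc2, although the call was made (log2 fold change -1.01, limma adjusted p = 0.0434). The call of Apoc2 was kept in 4 of 12 other settings and in 2 of 8 fits without 1 library (without LysM0 or K2KO3). Over all 8 of those fits, with or without the call, its log2 fold change ran from -1.24 to -0.73. Mertk, a receptor for the uptake of apoptotic cells, rose from 14.25 ± 1.679 to 18.28 ± 1.5 FPKM (log2 fold change 0.36, limma adjusted p = 0.0285), with LysM0 above K2KO3. Smpdl3a, a phosphodiesterase induced by LXR, rose from 141.5 ± 16.54 to 180.5 ± 9.869 FPKM (log2 fold change 0.36, limma adjusted p = 0.0266). Srebf1, the lipogenic transcription factor gene, was at 18.6 ± 1.237 and 16.91 ± 0.3534 FPKM and was not called (log2 fold change -0.13, limma adjusted p = 0.135). After the GC and length correction Pltp remained called, with a log2 fold change of -0.69. The log2 fold changes of the others were then -0.79 for Apoc2 (limma adjusted p = 0.0842), 0.28 for Mertk (0.0752) and 0.33 for Smpdl3a (0.0657). Over 12 other settings the log2 fold change of Pltp ran from -0.82 to -0.51. Its call was kept in 11 of them and lost with no filter on low values.

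The fatty acid binding proteins, which carry fatty acids in the cytosol and are PPARG targets, differed from one another. Fabp5 (ENSMUSG00000027533.10, chr3:10012548-10016607) stood at 518, 474.5, 362.8 and 406 FPKM in LysM0 to LysM3. Across K2KO0 to K2KO3, Fabp5 stood at 540.7, 645, 618.7 and 609.2 FPKM. Every K2KO library was above every LysM library, K2KO0 only narrowly above LysM0, in a direction of non-overlap found for 12.9% of all tested genes. The means were 440.3 ± 69.26 and 603.4 ± 44.46 FPKM (SD, n = 4), 1.37-fold, with a log2 fold change of 0.47 ± 0.12 (SE; 95% interval 0.21 to 0.72; limma adjusted p = 0.026). The adjusted p was 0.0545 without LysM1, 0.0581 without LysM2 and 0.0938 without LysM3 (limma). It was 0.0732 without K2KO1 and 0.0736 without K2KO2, so the call rested on each of these 5 libraries, with log2 fold changes between 0.38 and 0.51.

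The reads behind Fabp5 may not all come from that gene. The transcripts of 2 processed pseudogenes, Gm6166 and Gm14328, matched Fabp5 at 98.3% identity over 409 bases and 97.3% over 408 bases. Gm6166 was listed at 135.2 ± 26.91 FPKM in LysM and 191.6 ± 13.53 in K2KO (SD, n = 4; log2 fold change 0.52, limma adjusted p = 0.0274). Gm14328 was listed at 25.93 ± 4.7 and 38.6 ± 3.427 FPKM (log2 fold change 0.59, limma adjusted p = 0.0193). The ratio of Gm6166 to Fabp5 stayed between 0.281 and 0.323 in the 8 libraries, and that of Gm14328 to Fabp5 between 0.0549 and 0.0681. How reads shared by these transcripts were divided is not given in the sources used here, so the level of Fabp5 is uncertain and its copies are not separate observations. Summed over the 3 transcripts, the level was 601.4 ± 100.1 FPKM in LysM and 833.6 ± 60.22 in K2KO (log2 fold change 0.48 ± 0.12, SE; limma adjusted p = 0.026).

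**Figure D4:**
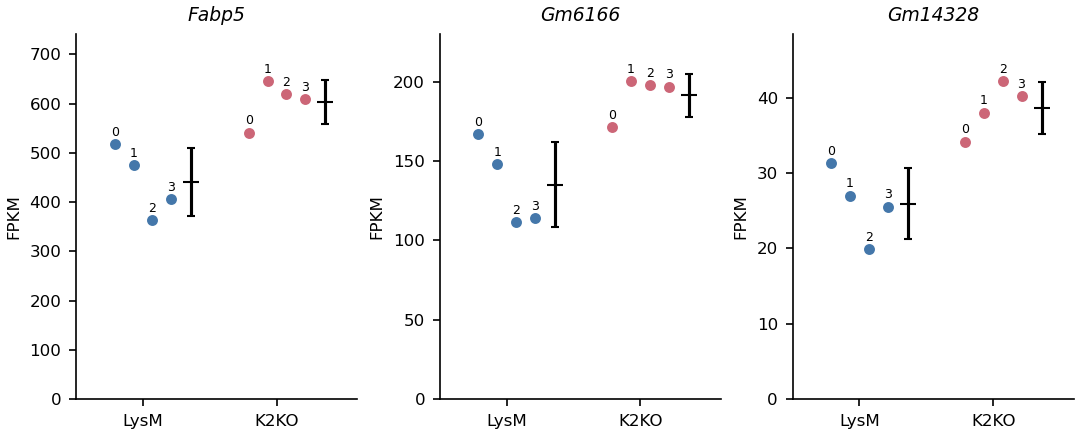
FPKM (vertical axes, each panel with its own scale) of Fabp5 and its near-identical processed pseudogenes Gm6166 and Gm14328 in the numbered LysM and K2KO libraries, with bars for the mean and SD. The 8 libraries fall in nearly the same pattern in all panels, with LysM2 lowest.

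Fabp4 (chr3:10204088-10208576), the adipocyte and macrophage form on the same chromosome, stood at 144.5, 126.6, 82.25 and 88.22 FPKM in LysM0 to LysM3. For K2KO0 to K2KO3, Fabp4 stood at 92.73, 130.9, 111.7 and 118.6 FPKM. LysM0 was the highest and LysM2 the lowest library, so the K2KO values lay within the LysM range. The log2 fold change was 0.07 ± 0.19 (SE, n = 4 per group; limma adjusted p = 0.809), with the widest 95% interval among the 9 genes, from -0.35 to 0.49.

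The Fabp4 to Fabp5 ratio of FPKM was 0.279, 0.2669, 0.2268 and 0.2173 in LysM0 to LysM3. In K2KO0 to K2KO3, the ratio was 0.1715, 0.203, 0.1806 and 0.1946. All K2KO libraries were below all LysM libraries, which the levels of Fabp4 alone did not show. The mean ratio was 0.2475 ± 0.03006 in LysM and 0.1874 ± 0.01408 in K2KO (SD, n = 4), a log2 difference of -0.40 (two-sided exact permutation test, p = 0.0286, adjusted p = 0.0429 over 3 ratios). The adjusted exact p was between 0.0571 and 0.0857 without LysM1, LysM2, K2KO0, K2KO2 or K2KO3, at log2 differences between -0.44 and -0.35. The groups did not overlap in these fits either. This ratio takes over the uncertainty of Fabp5.

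Plin2 (chr4:86648386-86670060), the coat protein of macrophage lipid droplets, was the most abundant of the 9 genes and stood at 1981, 2166, 1817 and 1852 FPKM in LysM0 to LysM3. From K2KO0 to K2KO3, Plin2 stood at 1564, 1885, 1811 and 1886 FPKM. The groups overlapped, with K2KO0 lowest. The log2 fold change was -0.13 ± 0.09 (SE, n = 4 per group; 95% interval -0.33 to 0.07; limma adjusted p = 0.318), and quantile normalization turned it to 0.17, so no direction is given.

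Of 10 other PPAR targets tested out of 13, 2 were called, both higher in K2KO (20%, near the 18.4% of all genes, with a median log2 fold change of 0.02). The count was 0 without LysM1, LysM3, K2KO0 or K2KO2, 1 without LysM2 or K2KO1, and 4, 2 higher and 2 lower, without K2KO3. Slc25a20, the mitochondrial carnitine-acylcarnitine carrier, rose from 24.17 ± 1.055 to 31.55 ± 3.888 FPKM (SD, n = 4; log2 fold change 0.38, limma adjusted p = 0.0226). Acsl1, which activates long-chain fatty acids to acyl-CoA, rose from 7.096 ± 0.5647 to 8.828 ± 0.6401 FPKM (log2 fold change 0.31, limma adjusted p = 0.0261), and 0.14 (adjusted p = 0.156) after the GC and length correction. Cd36, the fatty acid and oxidized LDL receptor, was at 138.1 ± 31.96 and 189.8 ± 49.08 FPKM and was not called (log2 fold change 0.46, limma adjusted p = 0.142). Its log2 fold change was 0.25 after the GC and length correction (limma adjusted p = 0.393).

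Of 11 genes of lipid droplets and neutral lipid turnover tested out of 17, 3 were called, 1 higher and 2 lower (27.3%, beside 18.4% of all genes, with a median log2 fold change of -0.03). Under quantile normalization and under upper-quartile scaling 1 was called higher and 0 lower (9.09%, beside 14% and 19.1% of all genes). Bscl2 was then at -0.16 and -0.25, and Lipe at -0.25 and -0.22, which are inside the fold limit for a call. The count was 3 without LysM0 or K2KO3, 2 without LysM2, and 1 without any other single library. Lpin2, a phosphatidate phosphatase on the route to triglyceride, rose from 19.28 ± 1.472 FPKM in LysM to 27.03 ± 1.789 in K2KO (SD, n = 4; log2 fold change 0.49, limma adjusted p = 0.00834). Bscl2, which encodes seipin at droplet contact sites, fell from 80.01 ± 6.084 to 65.15 ± 5.762 FPKM (log2 fold change -0.30, limma adjusted p = 0.0364). Lipe, hormone-sensitive lipase, fell from 18.42 ± 1.84 to 15.31 ± 0.7671 FPKM (log2 fold change -0.26, limma adjusted p = 0.0445), at the edge of the limit for a call and with a value of -0.23 (adjusted p = 0.0635) after the GC and length correction.

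Of 14 genes of cholesterol uptake, esterification and transport tested out of 17, 5 were called, 4 higher and 1 lower (35.7%, beside 18.4% of all genes), while the list's median log2 fold change was -0.05. Npc1, which exports cholesterol from lysosomes, rose from 29.18 ± 3.57 FPKM in LysM to 45.26 ± 3.579 in K2KO (SD, n = 4; log2 fold change 0.64, limma adjusted p = 0.00772). Npc1 was between 25.5 and 33.83 FPKM in LysM and between 42.08 and 50.37 FPKM in K2KO, and it overlaps Rmc1 on the opposite strand (14.3 FPKM). Soat1, which esterifies cholesterol for storage, rose from 81.21 ± 9.127 to 107 ± 9.792 FPKM (log2 fold change 0.40, limma adjusted p = 0.0241). Nceh1, which hydrolyses cholesteryl esters, rose from 65.59 ± 8.549 to 86.29 ± 8.359 FPKM (log2 fold change 0.40, limma adjusted p = 0.0322). Msr1, a scavenger receptor for modified LDL that was named because it completes the count, rose from 16.61 ± 0.6095 to 20.75 ± 1.881 FPKM (log2 fold change 0.32, limma adjusted p = 0.0208). Abca7, a phospholipid transporter, fell from 7.142 ± 0.5106 to 5.906 ± 0.1861 FPKM (log2 fold change -0.27, limma adjusted p = 0.0257). Leaving out 1 library gave as few as 1 call in this list, without LysM3 or K2KO2 (7.14%, beside 3.09% and 4.54% of all genes). It gave as many as 6, without LysM0 (42.9%, beside 21.4% of all genes). Of the 14 genes only Npc1 was called after the GC and length correction, at a log2 fold change of 0.48 (7.14%, beside 10.1% of all genes). The others were then at 0.19 for Soat1 (limma adjusted p = 0.129), 0.26 for Nceh1 (0.0934), 0.11 for Msr1 (0.301) and -0.25 for Abca7 (0.0616).

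**Figure D5:**
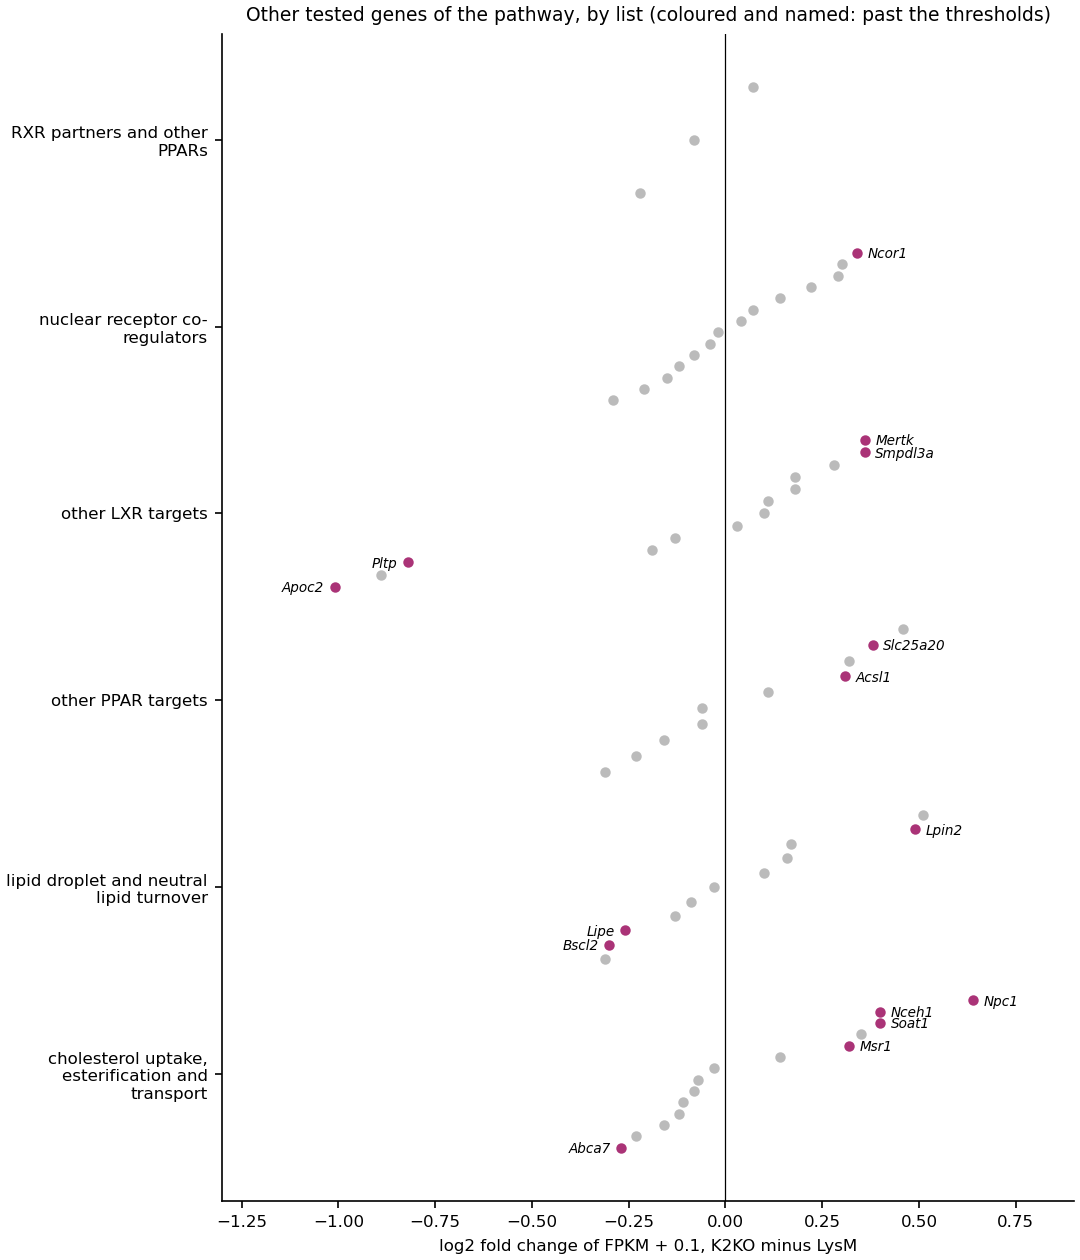
Log2 fold change of FPKM + 0.1, K2KO minus LysM (horizontal axis), for the 65 tested genes of the 6 other pathway lists, 1 point per gene. Coloured and named points are the 15 genes past the thresholds, 10 higher and 5 lower in K2KO, with Apoc2 at -1.01 and Npc1 at 0.64 the extremes among them.

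Across the 6 lists, 15 of 65 tested genes were called (23.1%, beside 18.4% of all genes), 10 higher and 5 lower, with a median log2 fold change of -0.02. Pltp, Lpin2 and Npc1 were called in all 8 fits that left out 1 library, and the other 12 lost the call in at least 3 of them. The count was lowest, at 3, without LysM3 or without K2KO2, and highest, at 19, without K2KO3. It was 4 without LysM1 or K2KO0, 6 without LysM2 or K2KO1, and 18 without LysM0. The share of all genes called moved with it, from 3.09% without LysM3 and 4.54% without K2KO2 (4.62% of the list genes in both) to 26% without K2KO3 (29.2%). With the GC and length correction 7 of 65 were called, 3 higher and 4 lower (10.8%, beside 10.1% of all genes). With upper-quartile scaling 13 were called, 11 higher and 2 lower (20%, beside 19.1%). Of the 7 called after the correction, 5 were among the 15, namely Pltp, Slc25a20, Lpin2, Bscl2 and Npc1.

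The order of levels was set by Plin2, then Fabp5, then Fabp4 and Abcg1, in both groups. In LysM, Plin2 (1954 ± 157.9 FPKM) and Fabp5 did not overlap, nor did Fabp5 and Fabp4, whereas Fabp4 and Abcg1 (91.66 ± 2.853 FPKM) overlapped and held that order in 2 of 4 libraries. Abcg1 and Nr1h2 did not overlap. Nr1h2 was above Nr1h3 without overlap, and Nr1h3, Pparg (26.92 ± 2.198 FPKM), Mylip (22.45 ± 2.119 FPKM) and Abca1 (19.45 ± 1.762 FPKM) followed, each overlapping its neighbour. In K2KO, Nr1h3 moved from the sixth place to the last, below Abca1 (21.94 ± 2.268 FPKM), with which it overlapped and which it exceeded in 1 of 4 libraries. Among all tested genes, Plin2 stood at the 99.8th percentile of mean level, Fabp5 at the 98.9th, Nr1h3 at the 72.5th and Abca1 at the 68.6th.

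Among the genes outside the lists whose profiles over the 8 libraries lay closest to that of Nr1h3 were Nfkbid and Gm2991. Likeness was the root mean square difference of log2(FPKM + 0.1) after centring each gene, which was 0.104 for Nfkbid and 0.11 for Gm2991. Nfkbid, a nuclear IκB protein, was at 29.72 ± 3.907 FPKM in LysM and 21.72 ± 2.538 in K2KO (SD, n = 4). Gm2991 was at 45.12 ± 3.932 and 31.28 ± 1.719 FPKM. The log2 fold changes of Nfkbid and Gm2991 were -0.45 and -0.52. After the GC and length correction they were -0.31 and -0.24 (limma adjusted p = 0.121 and 0.17). Since both genes were picked by their likeness to Nr1h3, their differences between the groups are a description.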

How the data were processed

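Per the labels, BMDM RNA from 4 LysM and 4 K2KO mice was sequenced. The authors deposited FPKM values, 1 column per library and 1 row per gene, on mm10. The study's methods name TopHat2 and Cufflinks and an RNeasy kit, whereas the submitters' processing notes name STAR, Cufflinks and Cuffdiff and the labels a Roche kit. Versions, and whether counting used strand, are not given in the sources used here. FPKM holds no counts, so depth is unknown. From the smallest values of low genes, depths relative to LysM0 were 0.969 to 1.24 in LysM and 0.883 to 1.42 in K2KO. Summed FPKM was 497253 to 551608 in LysM and 448235 to 501965 in K2KO. Genes listed at or near 0 were not taken as silent, since Gapdh never exceeded 0.4999 FPKM while Actb was at 1962 to 2949 FPKM.

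Genes with a mean of at least 1 FPKM (10920) were fitted with limma 3.58.1 in R 4.3.3 (lmFit, eBayes with trend) on log2(FPKM + 0.1), with Benjamini-Hochberg adjustment. Fold changes are on that scale and understate those of low genes. Ratios were tested by exact permutation of libraries. In simulated data of 10920 genes, 172 of 200 genes changed by a log2 change of 1 were recovered, with 3 false calls. Smaller changes, such as those of Nr1h3 and Fabp5, were not simulated. GENCODE M21 gave coordinates and transcripts for 99.5% of genes, and blastn 2.17.0 found copies (at least 95% identity over 200 bases). Alternatives were other pseudocounts, filters, scalings, a correction for GC content and length, other variance models, a replicate block and leaving out each library. In each other list, up to 3 genes called highest and 3 called lowest were named, and Srebf1, Cd36, Cd14, Lyz2, Msr1, Hdac3, Med1 and the genes with a library far from the others were added after their values were seen. Of the 3 genes most like Nr1h3 in profile, 1 is not reported here. The members and lists were chosen with earlier results of these data known. P-values measure the spread between these libraries.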

Additional observations from a re-analysis of the deposited data

Results flagged for a closer look

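The 74 tested genes of the members and lists, together with Klf2, Lyz2, the Fabp5 copies, the genes most like Nr1h3 and the 3 ratios, gave 168 groups of 4 libraries. In 6 of them 1 library stood apart from the other 3 by more than Dixon's limit, where about 8.4 would arise by chance. Pparg stood at 33.54 FPKM in K2KO1, against 24.26 to 24.63 FPKM in the other K2KO libraries, a gap of 0.96 of the group's range. Without K2KO1, the log2 fold change of Pparg was -0.14. K2KO1 also stood apart for Scarb1, a receptor for high density lipoprotein, at 33.78 FPKM against 27.17 to 27.28 FPKM. For Mgll, the monoacylglycerol lipase, K2KO1 was at 9.623 FPKM against 2.583 to 3.038 FPKM. Gps2, a corepressor subunit, was at 45.09 FPKM in K2KO3 against 34.56 to 36.14 FPKM in the other K2KO libraries. Acadl, long-chain acyl-CoA dehydrogenase, was at 39.99 FPKM in LysM2 against 29.48 to 31.01 FPKM in the other LysM libraries. Gm6166, the copy of Fabp5, was at 171.4 FPKM in K2KO0 against 196.9 to 200.2 FPKM in the other K2KO libraries.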

How the results depend on the processing

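Nr1h3 kept its direction and its call under all 12 settings tried on all libraries, with log2 fold changes from -0.56 to -0.41, and without any single library. Fabp5 kept its direction but not its call with no filter on low values (limma adjusted p = 0.0954) and by ordinary least squares (0.0685). The same held for the replicate block with the GC and length correction (0.0767). Under each of these settings 1 of the 9 genes was called (11.1%), beside 2.03%, 6.83% and 7.95% of all genes in that order. Leaving out 1 library gave 1 to 2 called (11.1% or 22.2%), beside 3.09% to 26% of all genes. Of all genes, 2014 were called, beside 483 with no filter on low values, 1098 after the GC and length correction, 746 by ordinary least squares, 868 with the replicate block and that correction, and 337 to 2837 without 1 library. Upper-quartile scaling made 64.1% of calls higher in K2KO, beside 53.3%, and the GC and length correction 44.2%. Of the other list genes, 2 of 81 were called with no filter (2.47%, beside 2.03% of all genes). Leaving out 1 library gave log2 differences of -0.67 to -0.49 for the Nr1h3 to Nr1h2 ratio, 0.19 to 0.37 for Abca1 to Abcg1 and -0.46 to -0.34 for Fabp4 to Fabp5.

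Differences not called changed sign as follows, the cause of which was not tested. Leaving out 1 library gave -0.03 to 0.08 for Nr1h2, -0.14 to 0.02 for Pparg and -0.06 to 0.21 for Fabp4. Quantile normalization gave 0.01 for Pparg, 0.02 for Abcg1 and 0.17 for Plin2, and upper-quartile scaling 0.02 for Pparg. The GC and length correction, with or without the replicate block, gave 0.02 for Pparg, -0.10 for Fabp4 and 0.04 for Klf2. Same-numbered libraries shared only a number, with correlations of their deviations of -0.07, 0.02, 0.07 and -0.06, and the replicate block called 2057 genes and 2 of the 9 genes.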

Other observations

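Over the 74 tested genes of the members and lists together, K2KO1 was the highest of the 8 libraries for 22 genes and the lowest for 11. LysM3 was the lowest for 17 genes and LysM2 for 15, the latter including Nr1h2, Mylip, Fabp4 and Fabp5. K2KO1 was the highest for Pparg and Fabp5, LysM0 for Nr1h2, Nr1h3 and Fabp4.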
